A study of Mus musculus with 6 samples.

Results

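The mouse zinc finger genes numbered Zfp600 to Zfp999 were examined in embryoid bodies with and without Tet enzymes. A gene was included if its current RefSeq symbol (GRCm38.p6) lies in the numbered series Zfp600 to Zfp999, with or without a final letter. The rule itself uses no measured value. The table held 184 such genes, of which 158 had at least 1 probe on the array, out of 20887 named genes with a probe. Of these 158, 145 were bright enough to be tested, and 120 of the 145 were well above background on all 6 arrays. The 13 genes with a probe that could not be tested were Zfp616, Zfp641, Zfp651, Zfp735, Zfp738, Zfp775, Zfp788, Zfp804a, Zfp831, Zfp870, Zfp872, Zfp940 and Zfp963. For Zfp940 and Zfp963 this was due to spots flagged as outliers, and the other 11 were dim. The remaining 26 genes had no named probe.

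Most genes in this numbered series encode proteins with arrays of zinc fingers that bind DNA, and many of them also carry a KRAB domain. KRAB zinc finger proteins recruit the scaffold protein TRIM28, which brings the histone methyltransferase SETDB1 and other silencing factors to the bound site, and many of them recognise transposable elements. Their genes often lie in clusters of related copies that differ between species. Some numbered genes encode proteins without a KRAB domain, with other roles. TET enzymes oxidise methylated cytosine in DNA, a step toward removal of the methyl group.

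The series measured total RNA on 1-colour Agilent arrays after Cy3 labelling, in 3 lines of mouse embryonic stem cells, all of mixed 129/C57BL6 background and each differentiated to embryoid bodies. The cells spent 2 days in hanging drops and 8 days in suspension in nonadherent plates, without LIF, a cytokine that holds stem cells undifferentiated, which makes 10 days in all. The groups were WT (1 line, 2 arrays) and the Tet1/2/3 triple knockout lines TKO#26 and TKO#29 (2 arrays each), called TKO_26 and TKO_29 here, with no other treatment stated. The submitters call same-line arrays technical replicas, so p-values over arrays cover only the spread within a line, and the genotypes rest on 1 WT line and 2 TKO lines.

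Values are log2 processed signals minus the array's 75th percentile, so that a value of 0 marks a fairly bright probe, and each value can be compared only with the same probe on other arrays. Where a gene had several probes that passed the filter, the brightest by its mean over all 6 arrays stood for it. A gene rose or fell if it differed from WT by at least 2-fold in the same direction in TKO_26 and in TKO_29, with a Benjamini-Hochberg adjusted p under 0.05 in each (limma, fit over all 21421 features tested). Both comparisons share the WT arrays. Between 38.4% and 55.8% of an array's spots were bright enough to be flagged well above background. Repeated spots of a probe varied more on TKO_26 replicate 1 (median CV 17.0%) than on the other arrays (4.73% to 5.84%). The 6 arrays shared 1 slide, where one column held WT and the other held TKO, so slide position cannot be told apart from genotype. Of the targeted genes, Tet1 (differences of -1.02 in TKO_26 and -1.69 in TKO_29) and Tet2 (-1.09 and -1.90) fell, and Tet3 did not pass (1.05 and -0.62). Whether these probes lie inside the deleted exons was not analysed here, so they do not check the genotype.

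The embryoid bodies differed in their cell markers. Of 40 markers of 9 cell types, all tested, 6 rose and 18 fell. All 5 heart muscle markers fell, with a summed scaled signal of 18.2 to 19 on the WT arrays and 0.383 to 0.402 on the TKO arrays. All 4 red cell markers fell too (8.3 to 8.97 against 0.0324 to 0.041). Of the pluripotent cell markers 3 of 6 rose and none fell (summed signal 4.44 to 4.57 in WT and 6.22 to 7.77 in TKO), and of the germ cell markers 3 of 4 rose (0.0977 to 0.1 against 0.222 to 0.273). Among the pluripotent markers not called, Zfp42 lay lower in both lines (-0.98 and -0.93) and Esrrb, the brightest, higher (1.01 and 0.45). Of the germ cell markers that rose, Dazl and Stra8 were well above background on no WT array. No marker had a signal of 0, but Hba-x, Hbb-bh1, Hbb-y, Tie1, Afp and Elf5 were well above background on no TKO array. Fewer cells of a type and less RNA per cell cannot be told apart in RNA of whole embryoid bodies. The part of these shifts in the zinc finger results was not tested.

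Among the 145 tested members, 13 rose and 6 fell in both TKO lines. The 13 were 8.97% of the members, where 4.05% of all features rose, and the 6 were 4.14%, where 6.59% of all features fell. The genes Zfp1 to Zfp599, named by the same convention, had 4 of 194 higher (2.06%) and 8 of 194 lower (4.12%). The genes that rose were Zfp874a, Zfp951, Zfp985, Zfp709, Zfp600, Zfp811, Zfp934, Zfp979, Zfp974, Zfp982, Zfp708, Zfp971 and Zfp995. The genes that fell were Zfp711, Zfp605, Zfp945, Zfp703, Zfp784 and Zfp618. Most members changed little: 109 of 145 lay within 2-fold of WT in both lines. The median difference was 0.05 in TKO_26 and 0.12 in TKO_29, and 0.11 for the mean of both lines (quartiles -0.25 and 0.60), beside -0.04 over all features and 0.11 over Zfp1 to Zfp599. The 2 arrays of a line differed by a median of 0.14 in WT, 0.21 in TKO_26 and 0.13 in TKO_29.

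A gene that is dim in WT enters the tests only through the TKO arrays and then had to lie higher there. Among the 120 members above background on all 6 arrays, 6 rose (5%, beside 2.85% of all such features) and 4 fell (3.33%, beside 4.72%). The 6 that rose were Zfp951, Zfp985, Zfp979, Zfp982, Zfp708 and Zfp995, and the 4 that fell were Zfp605, Zfp945, Zfp703 and Zfp618. The other 7 that rose were not well above background on at least 1 WT array. Their fold changes are bounds, taken against the dimmest probe still well above background there. Such a bound, for a rise or a fall, holds for the processed signal as scaled here and not for every background correction. With normexp the mean differences over both lines were 0.88 for Zfp600, 0.96 for Zfp811, 0.99 for Zfp934 and 0.70 for Zfp974. For Zfp784, which fell, it was -0.96. Each was smaller in size than its bound. With normexp background correction the counts were 6 higher and 5 lower, a share of 54.5% higher among the calls, against 68.4% as first counted. These were 4.14% and 3.45% of the members, beside 1.44% and 4.16% of all features under normexp. On line averages, with WT n = 1 and TKO n = 2 lines and 1 residual degree of freedom, only 1 member passed in each direction, Zfp874a higher (limma adjusted p = 0.0461) and Zfp711 lower (adjusted p = 0.0491), beside 0.154% and 0.752% of all features.

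**Figure D1:**
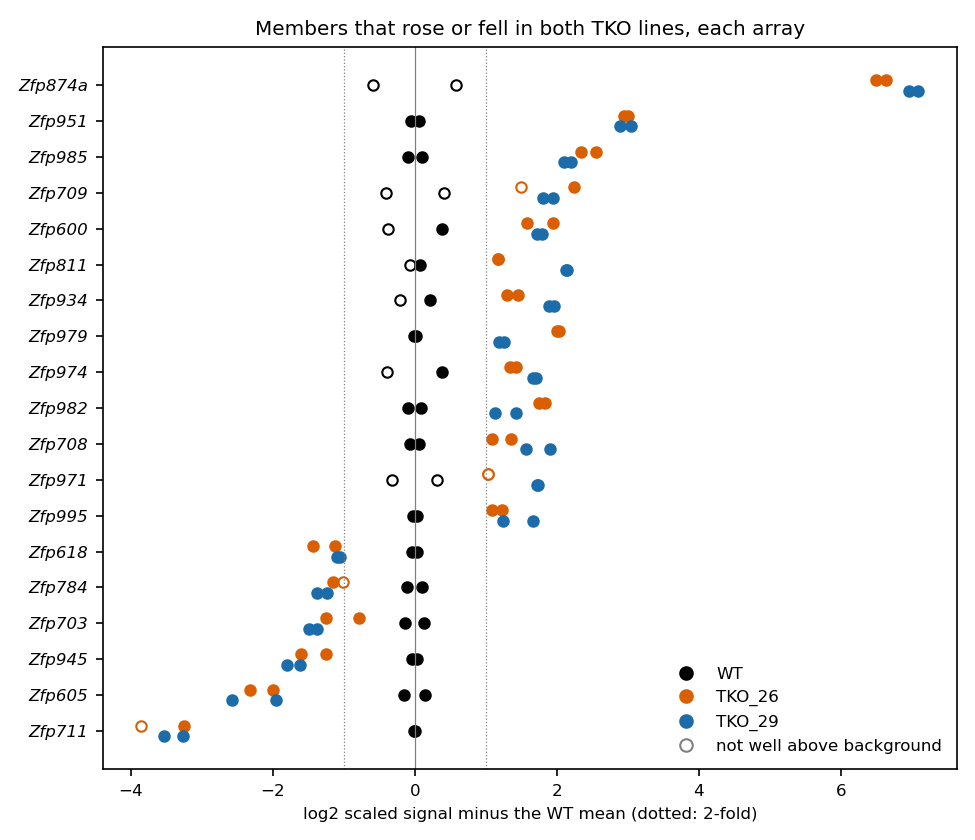
Scaled log2 signal of each of the 6 arrays minus the WT mean, for the 13 members that rose and the 6 that fell in both TKO lines, with open circles for arrays on which the probe was not well above background and dotted lines at 2-fold. The WT arrays do not overlap the TKO arrays for any of the 19 genes. The genes were chosen for such differences, so this is no separate support, here or gene by gene. Over all features, all TKO arrays lay above both WT arrays for 24.9% and below both for 25.5%. Zfp874a stands more than 6 log2 units from WT although its WT arrays are dim.

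Zfp874a, a gene of a chromosome 13 cluster, had the largest difference of all members. Its scaled log2 signal was -8.95 and -10.11 on the WT arrays, neither well above background, -3.04 and -2.90 on the TKO_26 arrays, and -2.44 and -2.57 on the TKO_29 arrays. All 4 TKO arrays were well above background and far from both WT arrays. The fitted difference was 6.56 ± 0.39 (SE) in TKO_26 (limma adjusted p = 0.00123) and 7.02 ± 0.39 in TKO_29 (adjusted p = 0.00101). Given the dim WT arrays this is at least 28.1-fold on the processed signal alone. The mean difference over both lines was 6.79, against 3.79 with normexp and 4.65 with the authors' deposited matrix. Both alternatives lie below that bound, so the fold depends on the background.

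The next member in the cluster, Zfp874b, is a near copy that did not pass. Its brightest probe read -5.12 and -4.95 in WT, -4.97 and -4.76 in TKO_26, and -4.45 and -4.84 in TKO_29, all above background. The difference was 0.17 ± 0.19 in TKO_26 (limma adjusted p = 0.552) and 0.39 ± 0.19 in TKO_29 (adjusted p = 0.151). Of 2 dimmer Zfp874b probes, neither above background on a WT array, one had differences of 1.13 and 0.87 and the other of 0.57 and 0.30, and neither was called. The probe letters were not used here, so how far each probe tells the copies apart was not tested. The sequences before the start of this pair are shown because they are similar while the fitted differences of the brightest probes were not. They are the 250 bases before the annotated start (RefSeq, GRCm38.p6), at chr13:67451625-67451874 on the minus strand for Zfp874a and chr13:67484254-67484503 on the minus strand for Zfp874b, written 5′ to 3′ along the gene with CG pairs, the sites at which TET enzymes mostly act, in capitals. Aligned end to end, 196 of 250 bases were identical (78.4%), with 9 CG pairs before Zfp874a and 8 before Zfp874b.
Zfp874a: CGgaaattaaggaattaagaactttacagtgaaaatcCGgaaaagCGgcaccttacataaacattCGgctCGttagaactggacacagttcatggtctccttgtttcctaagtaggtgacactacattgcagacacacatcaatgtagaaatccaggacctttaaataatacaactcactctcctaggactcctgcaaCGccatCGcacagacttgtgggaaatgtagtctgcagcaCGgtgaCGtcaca
Zfp874b: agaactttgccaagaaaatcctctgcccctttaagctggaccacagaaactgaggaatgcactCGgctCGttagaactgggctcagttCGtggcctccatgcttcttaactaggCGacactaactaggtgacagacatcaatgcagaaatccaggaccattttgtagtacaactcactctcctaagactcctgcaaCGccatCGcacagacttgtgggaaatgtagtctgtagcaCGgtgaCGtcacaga

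The chromosome 13 cluster runs from Zfp712 to Zfp738 and holds 10 members, 9 of them tested. A cluster here is 3 or more members in order along a chromosome with at most 10 other genes between neighbours. Besides Zfp874a, Zfp708 rose; its protein is a KRAB zinc finger protein that binds a family of retroelements. Zfp708 read -6.55 and -6.43 in WT, -5.39 and -5.14 in TKO_26 and -4.59 and -4.92 in TKO_29. All TKO arrays lay above both WT arrays. The differences were 1.22 ± 0.18 (limma adjusted p = 0.0112) and 1.73 ± 0.18 (adjusted p = 0.00358), 2.78-fold over both lines, and the call was lost without WT replicate 1. A second probe of Zfp708, above background on the TKO_29 arrays alone, had differences of 0.81 and 1.42 and was not called. Next to Zfp708, Zfp712 passed only in TKO_29 (1.01 in TKO_26 with adjusted p = 0.0838, and 1.85 in TKO_29 with adjusted p = 0.0135). The other neighbours did not pass in either line: Zfp759, dim in WT, had differences of -0.19 and 0.66, Zfp953 of 0.18 and 0.08, and Zfp748 of -0.15 and -0.02. The cluster's medians were 0.17 in TKO_26 and 0.39 in TKO_29. None of the 9 other genes tested within this cluster was called.

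On chromosome 4, 4 of 10 tested members rose and 1 fell, with medians of 0.83 in TKO_26 and 0.84 in TKO_29. The 923 other genes tested on chromosome 4 had medians of 0.02 and -0.05, and 3.36% of them rose. The members that rose lie in a pair of clusters. The first, from Zfp978 to Zfp933, holds 8 members of which 5 were tested, and 3 successive members rose: Zfp982, Zfp985 and Zfp979. Between Zfp982 and Zfp985 lie 3 other genes, and none between Zfp985 and Zfp979. How far the probes of Zfp982, Zfp985 and Zfp979 tell related copies apart was not tested, so their rises may not be independent.

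Zfp985 read -3.31 and -3.11 in WT, -0.87 and -0.66 in TKO_26, and -1.01 and -1.11 in TKO_29. The TKO arrays all lay more than 2 log2 units above the WT mean, 4.92-fold over both lines. The differences were 2.45 ± 0.14 (limma adjusted p = 0.00120) and 2.15 ± 0.14 (adjusted p = 0.00142).

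Zfp979 was a bright member, at -0.26 and -0.24 in WT, 1.75 and 1.78 in TKO_26, and 1.004 and 0.94 in TKO_29. The arrays of each line were close together and the lines stood apart, with TKO_26 highest. The differences from WT were 2.01 ± 0.11 (limma adjusted p = 0.00107) and 1.22 ± 0.11 (adjusted p = 0.00278), 3.07-fold over both lines. The difference of TKO_29 from TKO_26, -0.79 ± 0.11, did not pass (adjusted p = 0.0641). A second probe of Zfp979 was called higher as well, with differences of 1.44 and 1.25.

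Zfp982 encodes a zinc finger protein described as supporting the stem cell state. It read -3.80 and -3.62 in WT, -1.95 and -1.87 in TKO_26, and -2.28 and -2.58 in TKO_29. No TKO array overlapped WT, and the difference of TKO_29 from TKO_26 did not pass (-0.52 ± 0.16, limma adjusted p = 0.161). The differences were 1.80 ± 0.16 (limma adjusted p = 0.00305) and 1.28 ± 0.16 (adjusted p = 0.00573), 2.90-fold over both lines.

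Of the remaining tested genes of this cluster, Zfp984 had differences of 0.84 ± 0.40 and 1.19 ± 0.40 that did not pass (limma adjusted p = 0.201 and 0.0748). On the TKO_26 arrays it read -0.03 and 1.14, a wide spread for one line. Zfp933, at the end of the cluster, lay below WT on every TKO array, with differences of -0.43 and -0.94 that fell short of 2-fold. Zfp534, a zinc finger gene within the cluster whose number lies outside the range studied, rose as well (1.48 in TKO_26 with adjusted p = 0.0103, and 1.78 in TKO_29 with adjusted p = 0.00492). The second chromosome 4 cluster, from Zfp987 to Zfp993, is separated from the first by 19 other genes and had 3 of 5 members tested. Of these Zfp600 rose by at least 2.80-fold (differences of 1.76 ± 0.29 in both lines, limma adjusted p = 0.0165 and 0.0121). Zfp600 was above background on 1 WT array and on all 4 TKO arrays, and its call was lost without TKO_26 replicate 2 or without either TKO_29 array. On their brightest probes Zfp992 (0.16 and 0.49) and Zfp981 (0.82 and 0.13) were not called. A dimmer probe of Zfp981, above background on all 6 arrays, was called higher (1.76 and 2.35, limma adjusted p = 0.00825 and 0.00321), and another was not (0.84 and 0.69). A dimmer probe of Zfp992 had differences of 0.60 and 1.53 and was not called.

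The 250 bases before the start of the 3 chromosome 4 genes that rose together are shown for comparison with each other. They lie at chr4:147442864-147443113 on the plus strand for Zfp982, chr4:147553027-147553276 on the plus strand for Zfp985, and chr4:147642509-147642758 on the minus strand for Zfp979 (RefSeq, GRCm38.p6), with CG pairs again in capitals. Zfp979 and Zfp985 were identical at 213 of 250 bases (85.2%) and hold 2 and 5 CG pairs. Zfp982 was identical to Zfp985 at 48% and to Zfp979 at 49.6% of bases, within the range of unrelated pairs of the set printed here (35.6% to 51.2%), and holds 11 CG pairs.
Zfp982: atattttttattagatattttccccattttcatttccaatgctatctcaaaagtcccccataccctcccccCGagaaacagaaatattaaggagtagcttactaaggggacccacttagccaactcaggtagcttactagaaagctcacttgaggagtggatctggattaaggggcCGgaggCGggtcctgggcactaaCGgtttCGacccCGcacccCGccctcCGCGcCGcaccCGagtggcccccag
Zfp985: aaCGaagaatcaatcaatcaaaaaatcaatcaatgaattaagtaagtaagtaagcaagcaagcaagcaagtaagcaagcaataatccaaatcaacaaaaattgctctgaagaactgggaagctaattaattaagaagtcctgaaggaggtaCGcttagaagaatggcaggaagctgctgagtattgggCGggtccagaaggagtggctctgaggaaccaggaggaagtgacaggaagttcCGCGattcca
Zfp979: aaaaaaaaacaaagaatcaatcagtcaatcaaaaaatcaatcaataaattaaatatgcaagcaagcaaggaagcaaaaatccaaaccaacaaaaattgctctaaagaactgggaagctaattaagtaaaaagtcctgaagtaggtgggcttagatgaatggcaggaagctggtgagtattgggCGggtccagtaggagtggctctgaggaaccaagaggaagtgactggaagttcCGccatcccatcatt

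**Figure D2:**
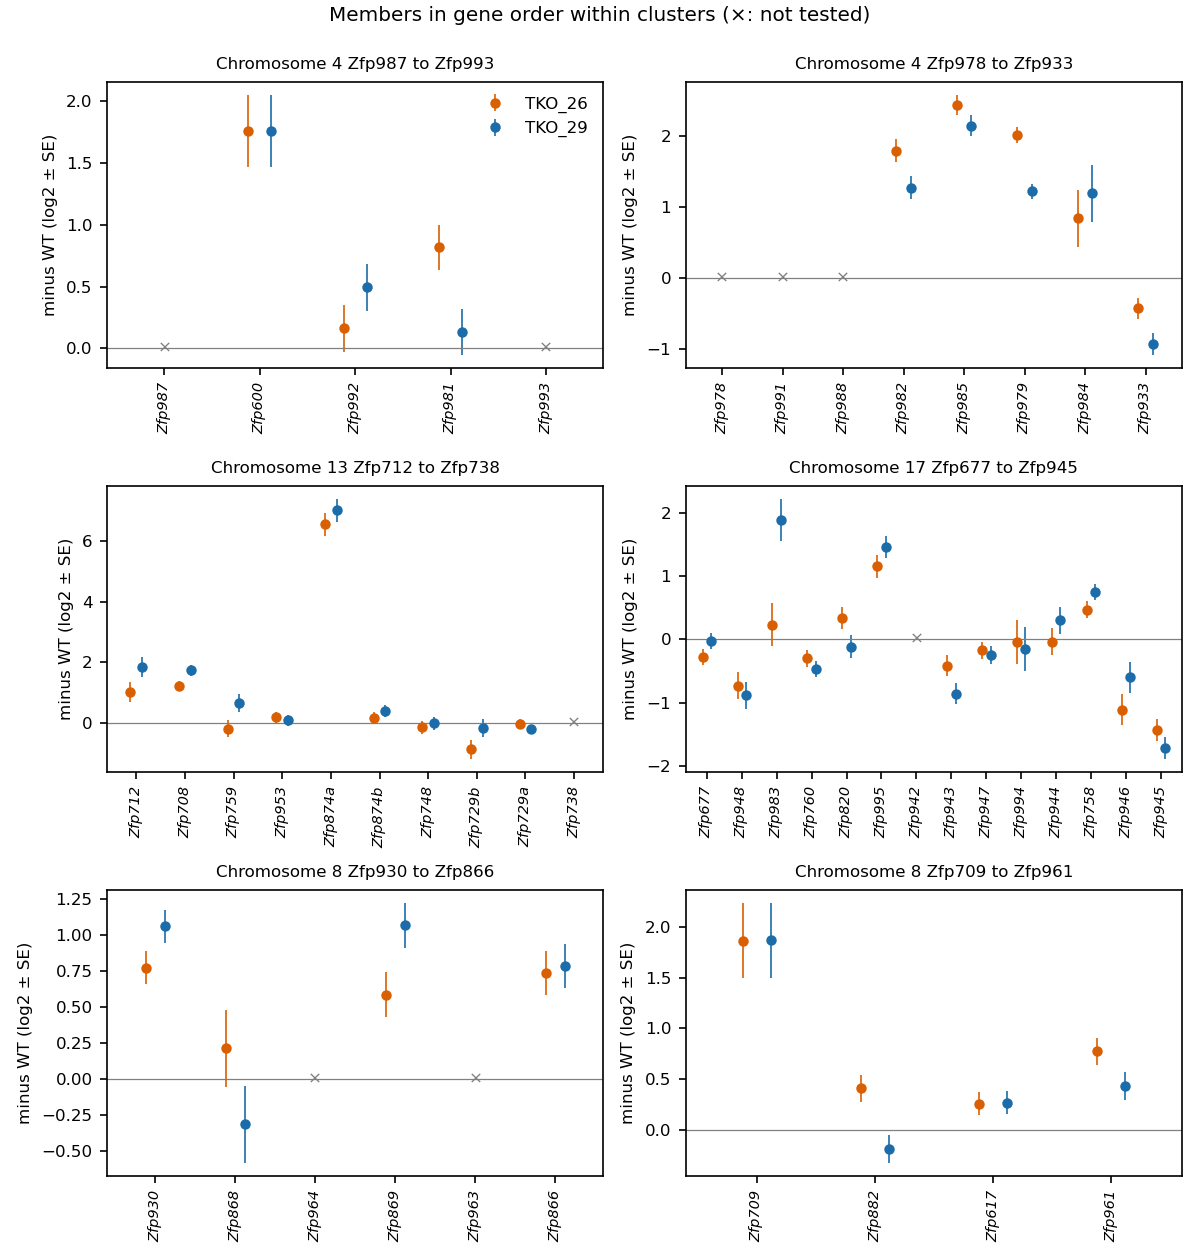
Difference of each TKO line from WT in log2 units ± SE, for members in gene order within 6 clusters on chromosomes 4, 13, 17 and 8, with crosses for members not tested and a separate vertical scale in each panel. In the cluster from Zfp978 to Zfp933 the successive members Zfp982, Zfp985 and Zfp979 lie above 1 in both lines, whereas in the chromosome 13 cluster Zfp874a stands apart from its neighbours Zfp953 and Zfp874b.

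Across all chromosomes, 18 clusters held 99 of the 184 genes, and 80 of these were tested. Of the 80, 11 rose and 2 fell, with a median difference of 0.23. Of the 65 tested members outside clusters, 2 rose (Zfp951 and Zfp934) and 4 fell, with a median of -0.02. Over all features 4.05% rose and 6.59% fell. In clusters Zfp874a, Zfp600, Zfp811, Zfp709, Zfp971 and Zfp974, and outside them Zfp934, entered the tests only through the TKO arrays. No test of the difference between clustered and other members was made. Signs within a cluster were mixed in some and shared in others. All 3 tested members of the chromosome 7 cluster from Zfp954 to Zfp772 were positive in both lines and all 3 of that from Zfp628 to Zfp784 negative in both, whereas the chromosome 17 cluster from Zfp677 to Zfp945 had 13 of 14 members tested, of which 1 rose, 1 fell, 3 were positive in both lines and 8 negative in both. In that cluster Zfp995 read -0.24 and -0.18 in WT, 1.01 and 0.87 in TKO_26, and 1.04 and 1.45 in TKO_29. It rose 2.47-fold (1.15 ± 0.18 and 1.45 ± 0.18, limma adjusted p = 0.0135 and 0.00556), a call lost without either WT array, without TKO_26 replicate 1, with no filter on dim probes and with the mean of its probes. A second probe, above background on no WT array and 3 TKO arrays, was not called (1.17 and 0.70). Its neighbour Zfp820 (0.33 and -0.11) was not called, and Zfp942 had no named probe.

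At the end of the same chromosome 17 cluster, Zfp945 fell. It read -3.55 and -3.62 in WT, -5.19 and -4.83 in TKO_26, and -5.21 and -5.38 in TKO_29. The groups were clearly apart, 2.96-fold over both lines, with differences of -1.42 ± 0.17 (limma adjusted p = 0.00670) and -1.71 ± 0.17 (adjusted p = 0.00337). Other probes of Zfp945 were not called, one at -1.16 and -0.90 and a dim one at 0.64 and 0.38, and with the mean of its probes the gene was not called. Its neighbour Zfp946 fell in TKO_26 alone by the same thresholds (-1.11, adjusted p = 0.0338, against -0.60 in TKO_29, adjusted p = 0.109). In a second chromosome 17 cluster, from Zfp871 to Zfp955b, Zfp811 rose by at least 3.09-fold. Zfp811 read -6.99 and -6.85 in WT, with only the second above background, -5.75 and -5.74 in TKO_26, and -4.77 and -4.79 in TKO_29. The lines differed from each other by 0.96 ± 0.12, with the lowest adjusted p of any member between the TKO lines (limma adjusted p = 0.0591), still above the threshold. Its neighbours Zfp871 (0.04 and 0.93) and Zfp799 (-0.20 in both lines) were not called.

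Outside the clusters, Zfp951 on chromosome 5 was the highest call among members above background on all arrays. It read -5.90 and -6.01 in WT, -2.95 and -3.00 in TKO_26, and -2.90 and -3.07 in TKO_29. The 4 TKO arrays lay within 0.2 of each other and nearly 3 log2 units above WT. The differences were 2.98 ± 0.13 (limma adjusted p = 6.46e-04) and 2.97 ± 0.13 (adjusted p = 6.39e-04), 7.86-fold over both lines, and on line averages the adjusted p was 0.0525. A second, dimmer probe, above background on no WT array and 3 TKO arrays, had differences of 1.25 and 0.92 and was not called. The 250 bases before its start, at chr5:104860069-104860318 on the minus strand (RefSeq, GRCm38.p6), hold 6 CG pairs, in capitals, and are shown as those of the strongest rise measured on both sides.
Zfp951: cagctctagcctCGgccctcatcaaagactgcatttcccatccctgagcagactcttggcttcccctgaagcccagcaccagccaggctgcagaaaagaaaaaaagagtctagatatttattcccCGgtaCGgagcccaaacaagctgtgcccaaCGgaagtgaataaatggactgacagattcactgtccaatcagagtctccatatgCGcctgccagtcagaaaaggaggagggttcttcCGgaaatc

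The other genes that rose were Zfp934, Zfp974, Zfp709 and Zfp971, each not well above background on at least 1 WT array. Zfp934 on chromosome 13 rose by at least 3.13-fold (1.38 ± 0.18 and 1.93 ± 0.18) and Zfp974 in a chromosome 7 cluster by at least 2.33-fold (1.38 ± 0.27 and 1.69 ± 0.27), each above background on 1 of 2 WT arrays and all 4 TKO arrays. A second probe of Zfp934, above background on no WT array and 3 TKO arrays, was not called (1.27 and 1.22). In its cluster Zfp974 stands between Zfp607a (-0.24 and -0.29) and Zfp780b (-0.41 and -0.42), and Zfp974 lost its call without WT replicate 1 or without any one of the TKO arrays. Zfp709, above background on no WT array and 3 TKO arrays, had fitted differences of 1.87 in both lines but a bound of only 1.15-fold, and its neighbour Zfp882 was not called (0.41 and -0.19). Zfp709 lost its call without WT replicate 2, TKO_26 replicate 2 or either TKO_29 array, and with the replicate number as a block. Zfp971 in a chromosome 2 cluster was above background on the TKO_29 arrays alone, so no fold is given. The call of Zfp971 was lost without any 1 array other than WT replicate 1, and with the block. Its neighbour Zfp931 was not called on its brightest probe (0.84 and 0.57), while a dimmer probe, above background on all 6 arrays, was called higher (1.75 and 1.63, limma adjusted p = 0.0177 and 0.0144). The non-member Gm14326 in the same cluster rose (1.91 and 2.55, limma adjusted p = 0.00701 and 0.00277).

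**Figure D3:**
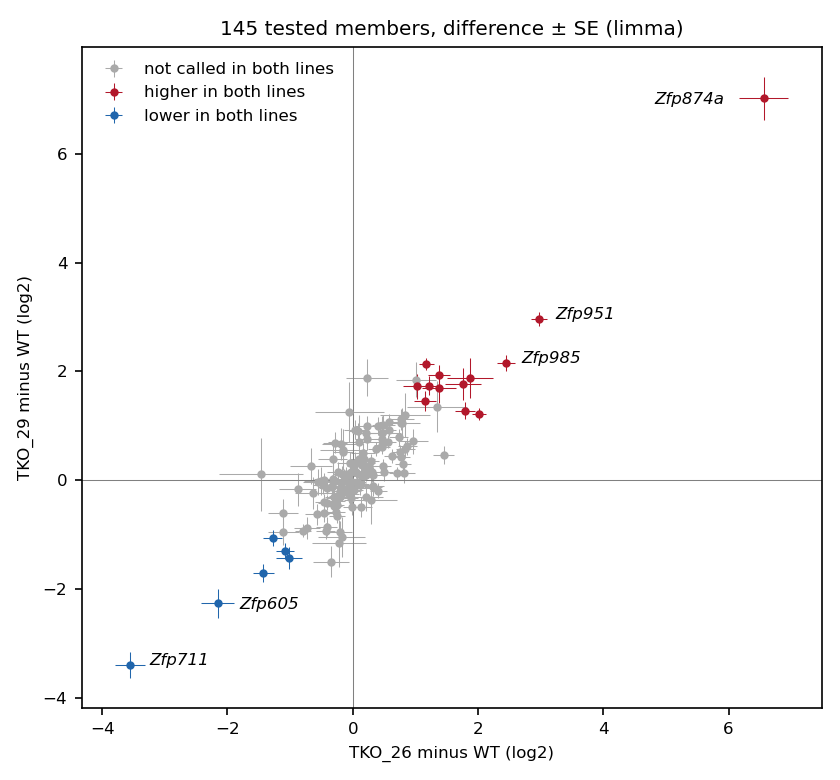
Difference from WT in TKO_29 against that in TKO_26 in log2 units, with bars for the standard error, for the 145 tested members, red where a gene rose and blue where it fell in both lines. Most genes lie within 1 unit of 0 on both axes, Zfp874a lies at 6.56 and 7.02, and both axes share the WT arrays.

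Among the genes that fell, Zfp711, on the X chromosome, changed most. It is a relative of Zfx whose human counterpart is mutated in forms of intellectual disability. It read -2.83 and -2.82 in WT, -6.68 and -6.08 in TKO_26, and -6.10 and -6.36 in TKO_29, with TKO_26 replicate 1 not well above background. The TKO arrays all lay more than 3 log2 units under WT, at least 10.3-fold lower on the processed signal, with differences of -3.55 ± 0.23 (limma adjusted p = 0.00149) and -3.40 ± 0.23 (adjusted p = 0.00149). The mean difference over both lines was smaller than that bound with normexp (-2.84) and with the deposited matrix (-3.02). The 531 other genes tested on the X chromosome had medians of -0.08 and -0.11.

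Zfp605 on chromosome 5 read -3.61 and -3.30 in WT, -5.77 and -5.45 in TKO_26, and -5.41 and -6.03 in TKO_29. It fell 4.63-fold, with no overlap of the groups (-2.16 ± 0.27 and -2.27 ± 0.27, limma adjusted p = 0.00748 and 0.00510). The probes of Zfp605 disagreed: another that passed the filter showed differences of 0.03 and 0.09, and with the mean of the probes Zfp605 was not called.

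Zfp618 encodes a partner of UHRF2 that has been described as a reader of hydroxymethylated cytosine, the product of TET enzymes. It read -1.23 and -1.30 in WT, -2.70 and -2.39 in TKO_26, and -2.31 and -2.36 in TKO_29. All TKO arrays lay more than 1 log2 unit under the WT mean, 2.25-fold over both lines (-1.28 ± 0.15 and -1.07 ± 0.15, limma adjusted p = 0.00625 and 0.00762). The call was lost without either TKO_29 array. The 250 bases before its start, at chr4:62965317-62965566 on the plus strand (RefSeq, GRCm38.p6), hold 48 CG pairs, in capitals. They are shown as the most CG-rich of the members, and do not stand for the genes that fell. Of the others that fell and were counted, Zfp784 held 22 CG pairs, Zfp605 6 and Zfp945 5.
Zfp618: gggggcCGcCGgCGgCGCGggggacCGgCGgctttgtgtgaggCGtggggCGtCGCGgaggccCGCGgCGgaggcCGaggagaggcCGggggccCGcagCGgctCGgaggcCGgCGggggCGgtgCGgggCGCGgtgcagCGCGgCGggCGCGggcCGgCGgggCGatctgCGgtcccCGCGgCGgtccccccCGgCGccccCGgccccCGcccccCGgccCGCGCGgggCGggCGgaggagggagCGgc

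Zfp703, a transcriptional corepressor of the NLZ family without a KRAB domain, read 1.40 and 1.13 in WT, 0.48 and 0.02 in TKO_26, and -0.22 and -0.10 in TKO_29. It was among the brighter members and fell 2.34-fold (-1.02 ± 0.21 and -1.43 ± 0.21, limma adjusted p = 0.0284 and 0.00862). Its TKO_26 difference was just past 2-fold, and the call was lost without any 1 array other than TKO_26 replicate 1. Zfp784 in a chromosome 7 cluster fell by at least 2.28-fold (-1.08 ± 0.14 and -1.30 ± 0.14, limma adjusted p = 0.00866 and 0.00425), and was above background on both WT arrays and 3 TKO arrays. Its call was lost without WT replicate 2, with normexp, with the percentile over all probes, with the deposited matrix and with no filter on dim probes, and its neighbour Zfp865 was not called (-0.30 and -0.31).

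Of 20 members listed for a known role, 18 were tested, 1 rose (Zfp708), 2 fell (Zfp703 and Zfp711) and 15 were not called, with differences between -0.93 and 1.35. These few calls stand beside 4.05% higher and 6.59% lower over all features. Zfp809, whose protein silences murine leukaemia viruses in embryonic cells by binding their primer binding site, read -3.95 and -3.78 in WT, -3.39 and -3.40 in TKO_26, and -3.17 and -3.33 in TKO_29. On this brightest probe of Zfp809 all TKO arrays lay above WT by a little, with differences of 0.47 ± 0.13 (limma adjusted p = 0.0629) and 0.61 ± 0.13 (adjusted p = 0.0237), under 2-fold. A second probe, above background on every array, overlapped WT, with differences of 0.35 and -0.07. Zfp932 and Zfp819, KRAB zinc finger genes linked to control of retroelements, also stayed under 2-fold, at 0.56 and 0.71 for Zfp932 and at 0.70 and 0.12 for Zfp819. The epidermal regulator Zfp750 had differences of 0.46 and 0.65, and Zfp768 of -0.80 and -0.93. Zfp827 had the largest difference among those not called (1.34 and 1.35) and was above background on no WT array and 2 TKO arrays. The other 9 that were not called were Zfp639 (0.11 and 0.40), Zfp646 (0.10 and 0.71), Zfp647 (-0.32 and -0.11), Zfp652 (-0.06 and -0.05), Zfp668 (-0.01 and -0.03), Zfp689 (0.31 and 0.15), Zfp704 (-0.63 and -0.24), Zfp706 and Zfp830. Zfp706 and Zfp830 lay within 0.2 of WT in both lines.

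Genes for protein partners of KRAB zinc fingers and for other silencing factors were listed separately. The list also held Zfp57, Zfp42, Rex2, Pogk and Ctcf, which are not such partners. Of its 36 genes 34 were tested, 1 rose and 1 fell, where 4.05% and 6.59% of all features did. The medians were 0.22 in TKO_26 and 0.03 in TKO_29. Trim28 had differences of 0.35 ± 0.37 (limma adjusted p = 0.545) and -0.14 ± 0.37 (adjusted p = 0.779), and Setdb1 of 0.35 ± 0.12 (adjusted p = 0.0983) and 0.40 ± 0.12 (adjusted p = 0.0537), so neither passed. The gene that rose was Rex2, itself a zinc finger gene (1.44 and 1.63, 2.90-fold). The gene that fell was Pogk, which encodes a KRAB domain joined to a domain derived from a pogo transposon (-2.55 and -2.76, at least 5.44-fold lower). Of 26 tested zinc finger genes of the Zscan and Zkscan groups and their relatives, 5 rose and 1 fell (Zkscan1). Those that rose were Zkscan4, Zscan4a, Zscan4c, Zscan4f and Zscan5b. All 5 were dim in WT and entered the tests only through the TKO arrays, where they then had to lie higher. Zscan4f was above background on 1 WT array and the others on no WT array. Their folds are thus lower bounds on the processed signal alone, from 1.80-fold (Zscan4a) to 2.96-fold (Zscan4f). Over all features 4.05% rose and 6.59% fell. The Zscan4 genes are near-identical copies, and their probes may not be independent.

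The members on chromosome 8 lay on a chromosome whose other genes were shifted as well. Its 769 other tested genes had median differences of 0.45 in TKO_26 and 0.44 in TKO_29, and 9.88% of them rose. On the other chromosomes apart from Y, the medians ran from -0.10 to 0.05 in TKO_26 and from -0.11 to 0.02 in TKO_29. The Y chromosome, which holds no member, had 5 genes tested, of which 4 rose (Ddx3y, Eif2s3y, Rbmy and Uty), with medians of 2.28 and 2.78. The 14 tested members on chromosome 8 had medians of 0.50 and 0.37, 11 of them positive in both lines, with 1 called higher (Zfp709) and 1 lower (Zfp703). On their brightest probes in the chromosome 8 clusters, Zfp930 (0.77 and 1.06), Zfp869 (0.59 and 1.06) and Zfp866 (0.74 and 0.78) lay above WT on every TKO array, while Zfp868 (0.22 and -0.31) did not. The size depended on the probe: a dimmer one of Zfp866 had differences of 0.13 and 0.06, and a dimmer one of Zfp930 of 1.68 and 1.71. With values centred on the other genes of each chromosome, a choice made after seeing the data, the mean difference over both lines was 1.57 for Zfp709 and -1.52 for Zfp703, and both were still called. The part of the chromosome-wide shifts in the members' values was not tested.

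**Figure D4:**
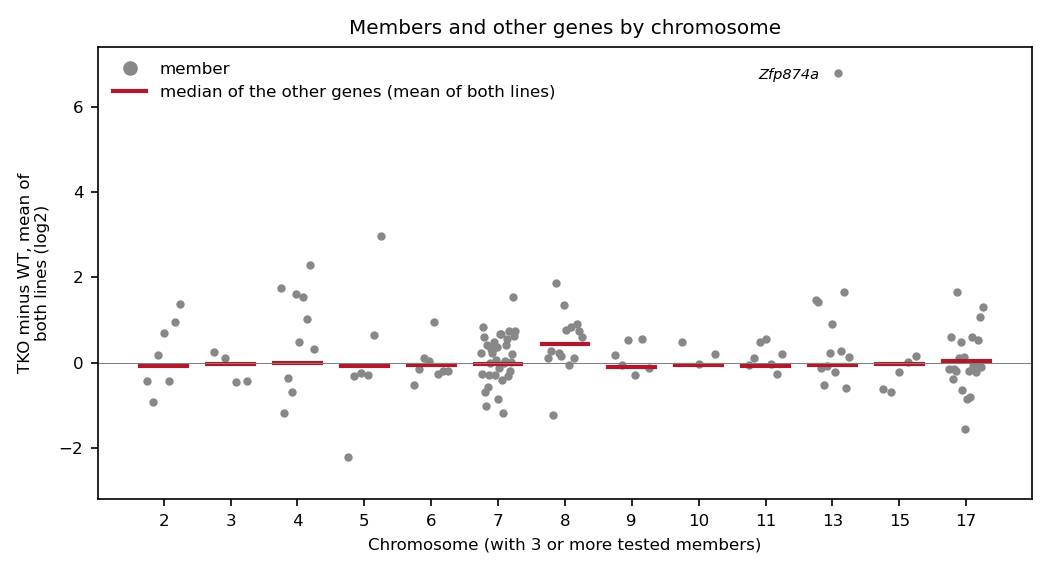
Mean difference of both TKO lines from WT in log2 units for each tested member (points), by chromosome, for chromosomes with 3 or more tested members, with bars at the median of the other genes of that chromosome. The bar of chromosome 8 lies near 0.45 and those of the other chromosomes near 0, and members spread widely on chromosomes 4, 13 and 17.

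Between the TKO lines no member was called, and no feature of all 21421 (limma, 2-fold and adjusted p under 0.05). At an unadjusted p under 0.05, 37 members (25.5%) differed between the lines, beside 22.3% of all features. The largest of these differences with a call in one line alone was that of Zfp983, a dim gene of the chromosome 17 cluster above background on the TKO_29 arrays alone (1.65 ± 0.34 from TKO_26 to TKO_29, adjusted p = 0.0965). For single lines, 14 members were higher and 8 lower in TKO_26 (5.6% and 7.79% of all features), and 20 were higher and 7 lower in TKO_29 (8.16% and 11.2%). Zfp783 passed higher in TKO_26 alone (1.45, against 0.46 in TKO_29), and Zfp629 lower in TKO_26 alone (-1.11 against -0.95). Zfp808, Zfp869, Zfp930, Zfp936, Zfp967, Zfp983 and Zfp712 passed higher in TKO_29 alone, and Zfp663 passed lower there (-1.50, against -0.35 in TKO_26). None of these line differences passed the test between the lines. By position of the arrays alone, all TKO arrays lay above both WT arrays for 52 members (35.9%, beside 24.9% of all features) and below both for 30 members (20.7%, beside 25.5%).

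Several probes passed the filter for 56 members. For 42 of these the mean differences of the probes lay within 1 log2 unit, and for none did probes differ from WT by 2-fold in opposite directions. The median span between probes of a gene was 0.553. The choice of probe matters for some calls: 6 members not called on their brightest probe had a dimmer one called higher (Zfp619, Zfp930, Zfp931, Zfp944, Zfp967 and Zfp981), and 2 had one called lower (Zfp672 and Zfp994). Brightness was the mean over all arrays, TKO included, so the choice leans toward probes that rise and against those that fall. On the WT arrays the Zfp672 probe called lower was the brighter one (-3.27 and -3.17, against -3.64 and -3.49). Zfp622 and Zfp628 had saturated spots and were not called.

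CG pairs in the 250 bases before the start were counted for the 159 members with a RefSeq promoter, whether or not they had a probe. The 12 members that rose and have a promoter in the table held a median of 5.5 CG pairs, with a range of 2 to 17, and the 111 tested members not called held a median of 9. The 4 that fell held a median of 14, with a range of 5 to 48. Over all members the median was 8, over Zfp1 to Zfp599 it was 12, and over the 11568 tested features with a promoter it was 15. Every one of the 159 members held at least 1 CG pair. Promoters without any were also few among Zfp1 to Zfp599 (2 of 172) and the tested features (198 of 11568), and numbered 2234 of 27025 in the whole table. The counts of members that rose and of those not called overlap widely, and no test of the difference was made. Zfp703, Zfp711 and Zfp934 are not in these counts.

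**Figure D5:**
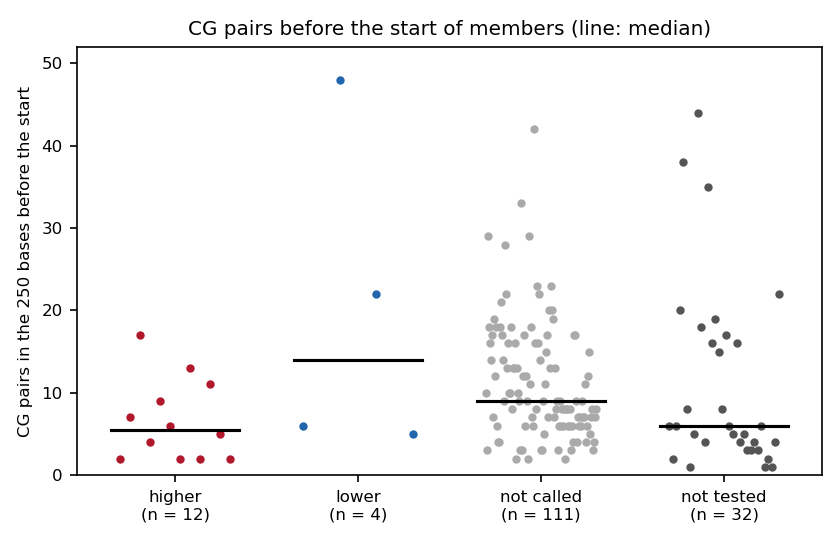
Number of CG pairs in the 250 bases before the RefSeq start for each member (points, with a line at the median), for members that rose, fell, were not called or were not tested. The members that rose have a median of 5.5 and those not called a median of 9, with ranges that overlap, and Zfp618 is the point at 48 among those that fell.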

How the data were processed

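Total RNA of embryoid bodies was measured on 6 one-colour Agilent arrays. Per the file headers, Agilent Feature Extraction 10.5.1.1 gave each spot's intensity as a background-subtracted processed signal, not normalised between arrays. The log2 matrix that the authors deposited, with no stated processing in the labels, served as an alternative. Its columns correlated with the log2 median signals of their arrays across probes (r from 0.9953 to 0.9998), although that of TKO_29 replicate 1 matched another array as well (0.9963), and their medians were 6.86 to 6.89. The values are thus on a log2 scale and not centred per gene.

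Control spots and outlier flags were removed and repeated spots averaged (55681 probes, 263 lost). Probes were named by unversioned accession through RefSeq (GRCm38.p6): 27509 (49.4%) had a symbol. Since the array design uses an older build, the table served for names, chromosomes and gene order. Log2 signals were scaled by the 75th percentile of the 19178 probes that every array measured above background. A probe was tested if some line had it above background on both its arrays, with limma 3.58.1 in R 4.3.3, in 3 groups with 3 residual degrees of freedom and on line averages with 1. Where the files held no mean signal, normexp (offset 50) used median signals. The number of arrays limits the precision. The fit was tested on simulated data.

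The members and lists were chosen with earlier results of these data known. Named with values were all members called in both lines, those of known role, cluster neighbours of named members, and Tet and cofactor genes. Alternatives were normexp, other scalings, quantile normalisation, the matrix, other filters, the mean of probes, a variance trend, a replicate block, leaving out each array and, chosen after seeing the data, centring per chromosome.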

Additional observations from a re-analysis of the deposited data

Results flagged for a closer look

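For 6 members every array of one TKO line lay on the opposite side of both WT arrays from every array of the other line. The share of all features with this pattern was not counted, so the 6 show nothing particular to these genes. The difference of TKO_29 minus TKO_26 was 0.98 for Zfp938 (limma adjusted p = 0.0937), 0.67 for Zfp957, 0.39 for Zfp873 and 0.22 for Zfp787, with TKO_29 above WT and TKO_26 below. It was -0.60 for Zfp882 and -0.21 for Zfp777, with TKO_26 above WT and TKO_29 below. None of the 6 differences passed the test between the lines.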

How the results depend on the processing

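Precision is limited by 2 arrays per line and by dim WT signals, where a fold depends on the background. The count of 13 members that rose became 6 with normexp, 6 with the filter on all 6 arrays and 6 with no filter on dim probes, and 9 to 12 when 1 array was left out. The count of 6 that fell became 3 with no filter, and 4 to 6 with 1 array left out. The median of 0.11 moved to 0.015 with normexp, 0.19 with the percentile over all probes, 0.050 with the filter on all 6 arrays and 0.20 with centring per chromosome, and was 0.08 to 0.13 with 1 array left out. The count of 0 between the lines (limma, 37 at an unadjusted p under 0.05) became 0 to 1 with 1 array left out, the 1 being Zfp623 without TKO_26 replicate 2. The 2 calls on line averages became 5 with normexp (3.45%, beside 3.79% of all features), 14 with the matrix (9.66%, beside 8.46%) and 0 with quantile normalisation, with the filter on all 6 arrays and with no filter (20, 13 and 7 at an unadjusted p under 0.05), and 0 to 7 with 1 array left out, with 0 without TKO_26 replicate 2 or TKO_29 replicate 2. Same-numbered arrays did not pair (correlations 0.17, -0.15 and -0.23); with the replicate block 11 rose and 6 fell, and 2 passed on line averages. Zfp874a, Zfp711, Zfp951, Zfp979, Zfp982 and Zfp985 were called under every alternative that measured them. Calls were lost for Zfp600, Zfp708, Zfp709, Zfp784, Zfp811, Zfp934, Zfp971 and Zfp974 with normexp; for Zfp709, Zfp784, Zfp811, Zfp971 and Zfp974 with the matrix; for Zfp703 and Zfp784 with the percentile over all probes; for Zfp709 and Zfp971 with quantile normalisation and with the block; for Zfp971 with a variance trend; and for Zfp605, Zfp945 and Zfp995 with the mean of probes. With no filter, Zfp600, Zfp618, Zfp703, Zfp708, Zfp709, Zfp784, Zfp934, Zfp971, Zfp974 and Zfp995 were lost. No called gene reversed. The cause of each change was not tested.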
